A study of Danio rerio with 6 samples.

Results

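The Hox genes of zebrafish were followed across 6 RNA sequencing libraries labelled as liver. Members were taken by name, as every gene whose symbol begins with hox, a cluster letter from a to d and a number, and rows of the same gene ID were summed. This gave 49 genes on 53 rows, out of 36191 genes on 43106 rows. The libraries came from wild-type fish of the AB strain, a common laboratory strain, at 3 months of age. In the GO group, 3 libraries were labelled as treated with nanoparticles of graphene oxide, a sheet-like carbon material, and in the CK group 3 were labelled as control. The series was designed to compare exposed with control liver. No dose or exposure time was used here, and the labels do not say whether replicates were separate fish or pools, so the p-values rest on a library-to-library spread that may be partly or wholly technical.

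Hox genes encode homeodomain transcription factors that give the cells of an embryo their position along the head-to-tail axis. They lie in clusters, and a gene's paralog number follows its place in the cluster: low numbers act in the hindbrain and throat region, middle numbers in the front of the trunk, and high numbers in the hind trunk, tail and outer fin or limb. An extra genome duplication in the ancestor of teleosts, the group of bony fish that includes zebrafish, copied the clusters again. This is why many genes have an a and a b copy. Adult cells often keep part of the Hox pattern of the position in which they arose. The 49 genes fell into 7 clusters (hoxaa, hoxab, hoxba, hoxbb, hoxca, hoxcb and hoxda) and 13 paralog numbers, with 10 anterior genes (paralog numbers 1 to 3), 16 middle genes (4 to 8) and 23 posterior genes (9 to 13).

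Total estimated counts were 9739760 to 12998273 per library, and every Hox gene had counts in every library, with 6 as the lowest count, 1293 as the highest and 100.5 as the median. Hox transcripts took 0.0507% of all counts (95% Wilson interval 0.0494% to 0.0520%) in the library with the lowest share and 0.0714% (0.0697% to 0.0731%) in the one with the highest. The markers went against the liver label. In CPM (counts scaled to a library of 1000000 counts), 19 hepatocyte genes summed to 14689 in GO replicate 3 and 13047 in CK replicate 3, and to 559 to 1241 in the 4 other libraries. In every library they were below the 14 muscle genes, which summed to 60542 to 90752 CPM, and in replicates 1 and 2 also below the 14 neuron genes, at 3822 to 4115 CPM. The Hox values can therefore not be read as those of hepatocytes. Tissue and age are given here as the labels state them. Neither could be checked beyond these markers, so what tissue the Hox levels describe is in doubt. No gene found on these lists was at 0 in all libraries. Replicate 3 of both groups stood apart, so each comparison of GO with CK is also given for replicates 1 and 2 and for the replicate 3 pair.

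Within the libraries, transcripts of all 49 Hox genes were found, in all 7 clusters and all 13 paralog numbers. The members of hoxbb included no posterior gene, and those of hoxcb no anterior gene. Levels are compared between genes as the mean FPKM over the 6 libraries, which accounts for transcript length. The median member was at 7.22 FPKM, with 16 genes at 10 FPKM or more, 25 from 3 to 10 and 8 under 3. The median was 7.84 FPKM for anterior, 11.2 for middle and 6.60 for posterior genes. By cluster, the lowest median was that of hoxcb, at 2.5 FPKM over its 4 genes, and the highest that of hoxca, at 9.87 FPKM over its 11.

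**Figure D1:**
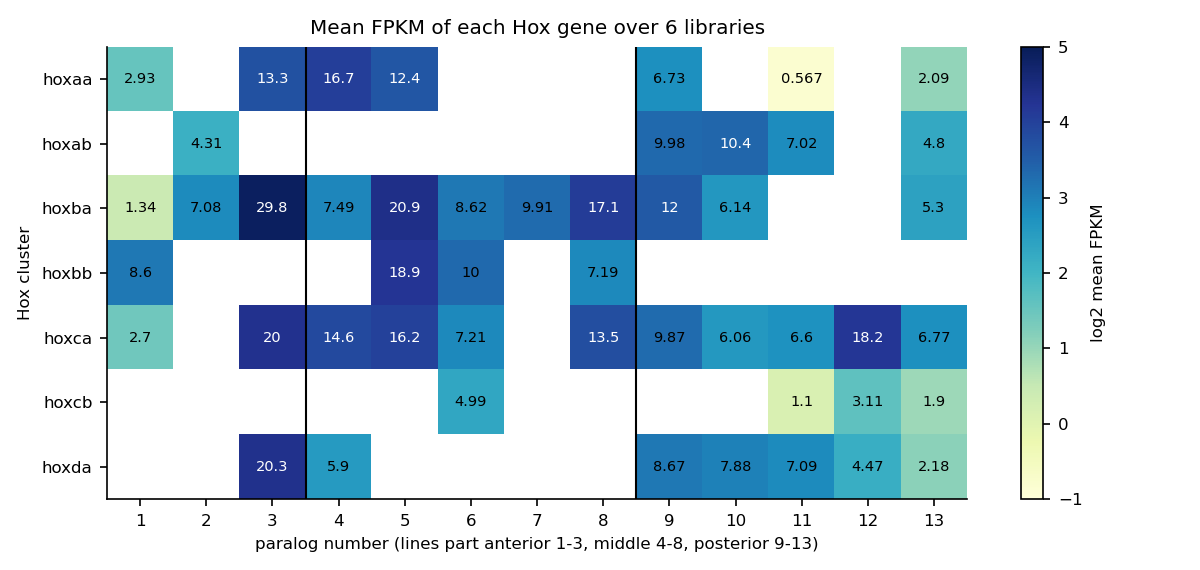
Mean FPKM of each Hox gene over 6 libraries, with clusters as rows and paralog numbers as columns. The colour is on a log2 scale, the printed numbers are mean FPKM, an empty cell has no gene of that name in the files, and the values run from 0.567 (hoxa11a) to 29.8 (hoxb3a).

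The paralog number 3 genes, which act in the hindbrain and the throat arches, held 3 of the 4 highest places. Each of these overlaps the span of another member in the reference gene table, so the reads may be split wrongly between neighbours. hoxb3a was highest, at 29.8 ± 5.62 FPKM (SD, n = 6 libraries). It was followed by hoxb5a at 20.9 ± 0.77, hoxd3a at 20.3 ± 6.5 and hoxc3a at 20.0 ± 2.09 FPKM, which lay within 1 FPKM of each other. The posterior gene hoxc12a, at 18.2 ± 3.35 FPKM, was the sixth, so the order of levels did not follow the order of paralog numbers. At the low end were hoxb1a, which marks a single hindbrain segment in zebrafish embryos, at 1.34 ± 0.41 FPKM, hoxc11b at 1.1 ± 0.18 and hoxa11a at 0.567 ± 0.21 FPKM. The last of these was the single member under the level required for testing, a mean of at least 1 FPKM, and hoxc11b lay just above it. The files' values imply transcripts of 4035 bases for hoxa11a and 4004 for hoxc11b, the longest of all members, which lowers their FPKM for a given count. For hoxc12a, with a mean of 134 counts, the same values imply 638 bases, and a short transcript raises FPKM for a given count.

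Between the a and b copies of a gene, 1 copy usually led. In 8 of 11 such pairs the same copy had the higher FPKM in all 6 libraries. The a copy led for hoxb8, hoxc11, hoxc12 and hoxc13, and the b copy for hoxa9, hoxa11, hoxa13 and hoxb1. The gap was widest for hoxa11, where hoxa11b was 7.76 to 23.7 times as high as hoxa11a. For hoxb1, hoxb1b was 4.12 to 11.9 times as high as hoxb1a, which had 6 to 16 counts per library. The gap was narrow for hoxa9, where hoxa9b was 1.11 to 1.79 times as high as hoxa9a. The hoxb5, hoxb6 and hoxc6 copies changed places in 1 library each. For hoxc6 the a copy had the higher mean FPKM but the lower mean count. It had 33.5 counts over an implied 408 bases, against 157 over 2672 bases for hoxc6b. The 4 members hoxb1b, hoxb5b, hoxb6b and hoxb8b stood on 2 rows each, with counts that were not whole by row. Summed over the 2 rows, their counts were whole in every library. In addition, 18 members overlap another member's span in the reference gene table, hoxb1b, hoxb3a, hoxa3a, hoxc3a and hoxd3a among them. The split of reads between neighbours is uncertain for these 18.

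Replicate 3 had less Hox RNA than replicates 1 and 2 in both groups. The 49 genes summed to 518 CPM in GO replicate 3 and 507 CPM in CK replicate 3, against 681 and 683 CPM in GO replicates 1 and 2 and 714 and 693 CPM in CK replicates 1 and 2. On the log2 scale the difference between the means of the TMM-scaled sums was -0.47, where TMM is edgeR's scaling between libraries. All log2 differences of sums between replicate 3 and replicates 1 and 2 are on this scale. CPM values of single genes are also TMM-scaled from here on, while sums given in CPM are unscaled. Both replicate 3 libraries lay below all 4 others. All 3 tiers showed it: anterior genes summed to 185 and 182 CPM in GO and CK replicate 3, against 241 to 262 CPM in the 4 others. Middle genes summed to 188 and 181 CPM in GO and CK replicate 3, against 219 to 242 CPM. Posterior genes summed to 145 and 144 CPM in GO and CK replicate 3, against 200 to 216 CPM. The log2 differences were -0.51 for anterior, -0.36 for middle and -0.55 for posterior genes, so the makeup of the Hox RNA by tier moved little. Middle genes held 36.3% and 35.7% of it in GO and CK replicate 3, against 32.1% to 34.9% in the 4 others. In bulk RNA, fewer cells of a type and less RNA per cell cannot be told apart.

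**Figure D2:**
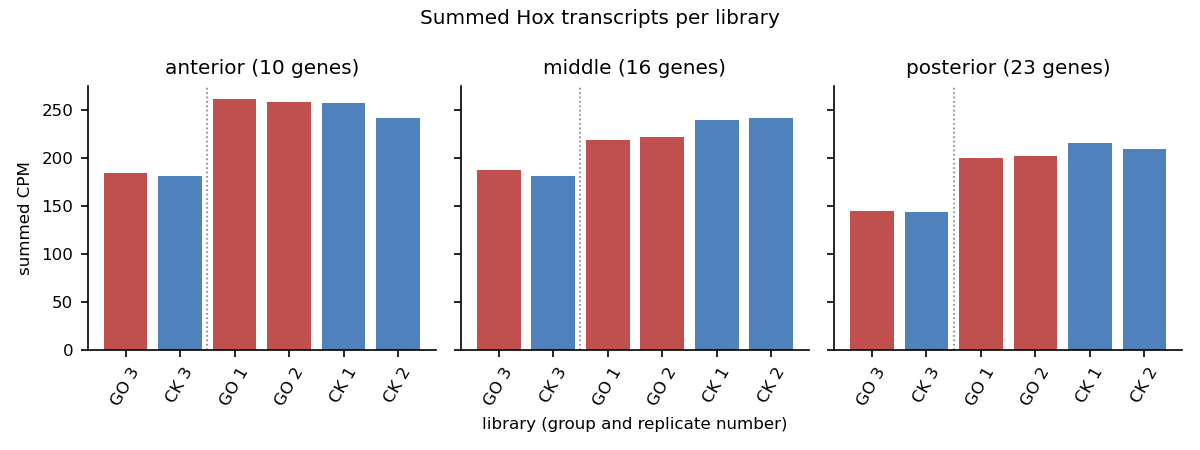
Summed CPM of the anterior, middle and posterior Hox genes in each library, with GO in red, CK in blue and the replicate 3 libraries left of the dotted line. In every panel both replicate 3 bars are below the 4 others; anterior genes reach 185 CPM in GO and 182 CPM in CK replicate 3, against 241 to 262 CPM in the rest.

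Gene by gene, edgeR's quasi-likelihood test with the group as a covariate called 25 of the 48 tested members lower in replicate 3 than in replicates 1 and 2, where 27% of all 19313 tested genes were called lower. A gene was called when its Benjamini-Hochberg adjusted p over all tested genes was under 0.05. It called 1 member higher, hoxc6a, where 28.8% of all tested genes were called higher. The share of members called lower was 52.1%. Their median log2 fold change was -0.43, beside 0.00 for all tested genes, and 42 of 48 had a negative value, beside 50% of all tested genes. Both replicate 3 libraries lay below all 4 others for 32 members (66.7%, beside 31.1% of all tested genes) and above them for 2, hoxa1a and hoxc6a (beside 32.4%). Within GO alone and within CK alone the median log2 difference was -0.37 and -0.45. In both groups 37 members were lower in replicate 3, but the share of all tested genes that did so was not computed. Of the 26 called members, 13 kept the call in all 15 other fits and 13 lost it in at least 1. Because replicate 3 was singled out with earlier results of these libraries known, the comparison is between libraries, not conditions.

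**Figure D3:**
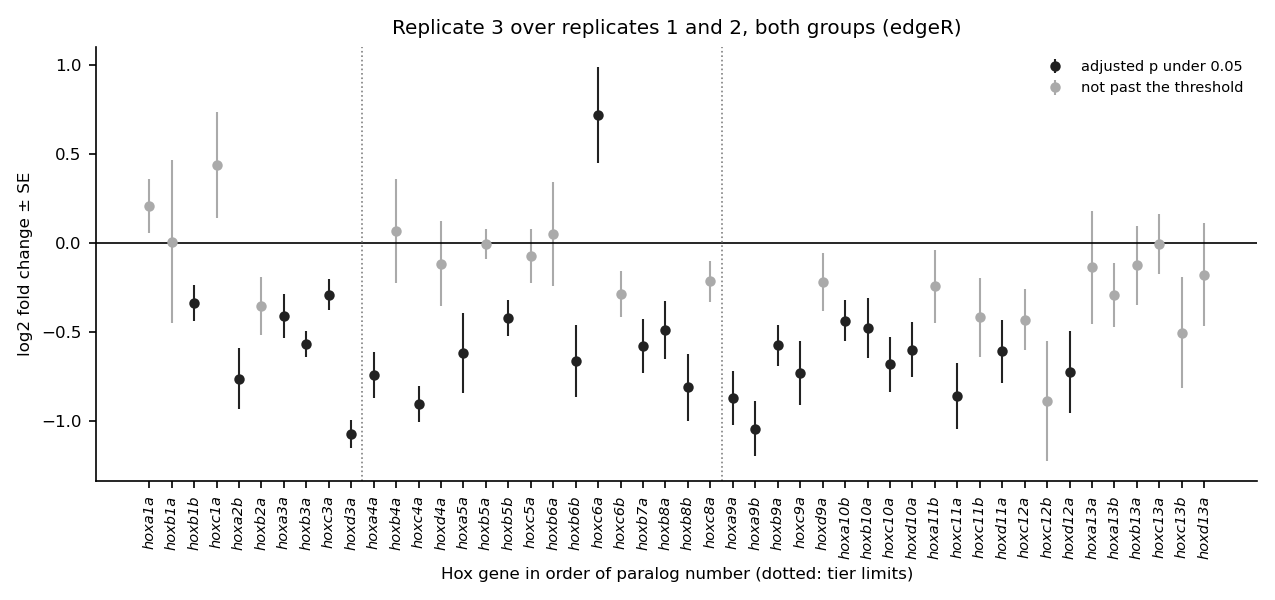
Log2 fold change (± SE, edgeR) of each of the 48 tested Hox genes in replicate 3 over replicates 1 and 2, in order of paralog number, with dotted lines between the tiers. Black points have an adjusted p under 0.05: 25 lie below 0 and 1, hoxc6a, above it.

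Among the anterior genes, 6 of 10 were called lower, and all 4 of paralog number 3 were among them. These 4 are among the members that overlap a neighbour, so the split of their reads is uncertain. hoxb3a and hoxd3a kept the call in all 15 other fits, and hoxa3a and hoxc3a in 11, losing it with each of 3 libraries left out in turn (hoxa3a without GO replicate 1, GO replicate 3 or CK replicate 1, from -0.38 to -0.33; hoxc3a without GO replicate 2, CK replicate 2 or CK replicate 3, from -0.26 to -0.23). hoxb3a had 67.8 CPM in GO replicate 3 and 65.9 CPM in CK replicate 3, against 103 and 102 CPM in GO replicates 1 and 2 and 102 and 89.4 CPM in CK replicates 1 and 2. Its log2 fold change was -0.57 ± 0.07 (SE; adjusted p = 0.000294, edgeR), and the replicate 3 values did not overlap the others. hoxd3a had the largest fall of all members, to 24.4 CPM in GO replicate 3 and 21.4 CPM in CK replicate 3, against 48.6 and 47.6 CPM in GO replicates 1 and 2 and 47.2 and 48.7 CPM in CK replicates 1 and 2. The 4 libraries of replicates 1 and 2 lay close together, and the log2 fold change was -1.07 ± 0.08 (adjusted p = 1.65e-05, edgeR). hoxb1b, which patterns the early hindbrain in zebrafish, had 17.4 and 18.0 CPM in GO and CK replicate 3, against 22.5 and 20.0 CPM in GO replicates 1 and 2 and 23.0 and 24.1 CPM in CK replicates 1 and 2. It was called lower (-0.34 ± 0.10), but the call held in only 9 of 15 other fits, and was lost without GO replicate 1, CK replicate 2 or CK replicate 3 (-0.31 to -0.28). hoxa2b, which sets the identity of the second throat arch in zebrafish, was also called lower (-0.76 ± 0.17), in all 15 other fits as well. For hoxb2a, with 9.53 and 8.93 CPM in GO and CK replicate 3 against 10.5 and 10.7 CPM in GO and 14.8 and 11.5 CPM in CK replicates 1 and 2, all 4 others were higher but the test did not pass (-0.36 ± 0.16, adjusted p = 0.0947, edgeR). The other members of paralog number 1 had values near or above 0: hoxa1a 0.21 ± 0.15, hoxb1a 0.01 ± 0.46 and hoxc1a 0.44 ± 0.30, none past the test.

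Of the 16 middle genes, 8 were called lower and 1 higher. hoxc4a had 10.7 CPM in GO replicate 3 and 12.2 CPM in CK replicate 3, against 19.8 and 19.8 CPM in GO and 22.6 and 23.5 CPM in CK replicates 1 and 2. hoxa4a had 11.6 and 14 CPM in GO and CK replicate 3, against 20.5 and 18.1 CPM in GO and 20.9 and 26.0 CPM in CK replicates 1 and 2. Both fell without overlap, by 0.90 ± 0.10 and 0.74 ± 0.13 on the log2 scale. The genes of paralog number 5 had values on both sides of the threshold. hoxb5a, the second highest member, had 31.9 and 30.5 CPM in GO and CK replicate 3, against 29.2 and 30.3 CPM in GO and 33.2 and 32.7 CPM in CK replicates 1 and 2. Its log2 fold change was -0.01 ± 0.08, one of the smallest standard errors of all members, and its 2 replicate 3 values lay inside the range of the others. hoxc5a was likewise at -0.07 ± 0.15, while hoxb5b (-0.42 ± 0.10) and hoxa5a (-0.62 ± 0.22) were called lower. hoxb5b kept the call in all 15 other fits and hoxa5a in 8, losing it without GO replicate 2, GO replicate 3, CK replicate 1 or CK replicate 2 (-0.65 to -0.48). Paralog number 5 as a whole summed to 67.9 and 67.0 CPM in GO and CK replicate 3, against 71.8 and 74.0 CPM in GO and 82.0 and 73.8 CPM in CK replicates 1 and 2.

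hoxb6b had 5.04 and 5.02 CPM in GO and CK replicate 3, against 7.02 and 6.39 CPM in GO and 10.7 and 8.18 CPM in CK replicates 1 and 2 (log2 fold change -0.66 ± 0.20). hoxb7a had 7.61 and 6.89 CPM in GO and CK replicate 3, against 9.79 and 9.86 CPM in GO and 12.4 and 11.4 CPM in CK replicates 1 and 2 (-0.58 ± 0.15). hoxb8b had 3.58 and 3.66 CPM in GO and CK replicate 3, against 6.38 and 5.68 CPM in GO and 6.57 and 6.75 CPM in CK replicates 1 and 2 (-0.81 ± 0.19). In these 3 genes the replicate 3 libraries lay below the rest, and the test passed for each. hoxb8b kept the call in all 15 other fits. hoxb6b kept it in 11 of 15, and lost it without GO replicate 1, without CK replicate 1 and without CK replicate 3, where the value was -0.41 (adjusted p = 0.181, edgeR). hoxb7a lost it without CK replicate 3 (-0.37, adjusted p = 0.140, edgeR). hoxc6a went the other way, with 3.48 and 4.42 CPM in GO and CK replicate 3, against 2.68 and 3.0 CPM in GO and 2.12 and 1.91 CPM in CK replicates 1 and 2. Its log2 fold change of 0.72 ± 0.27 lay at the threshold (adjusted p = 0.0496, edgeR). The call was lost in 10 of 15 other fits, among them the fit with the replicate number as a block, and without CK replicate 3 the value was 0.29 (adjusted p = 0.538). Leaving out GO replicate 1, GO replicate 2, CK replicate 1 or CK replicate 2 also ended the call, at 0 members higher in each fit.

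Of the 22 posterior genes tested, all 22 had a negative log2 fold change and 11 were called lower. hoxa9b had 10.1 CPM in GO replicate 3 and 8.68 CPM in CK replicate 3, against 16.4 and 20.9 CPM in GO and 21.6 and 18.3 CPM in CK replicates 1 and 2. It and hoxd3a were the 2 members past a 2-fold fall (hoxa9b -1.04 ± 0.16, adjusted p = 0.000644, edgeR). hoxa9a had 5.59 and 7.15 CPM in GO and CK replicate 3, against 9.05 and 10.7 CPM in GO and 14.2 and 12.7 CPM in CK replicates 1 and 2 (-0.87 ± 0.15). In mice, the Hoxa9 gene acts in blood-forming cells as well as in the trunk. hoxb9a, the highest paralog number 9 gene, had 23.3 and 18.5 CPM in GO and CK replicate 3, against 29.3 and 31.7 CPM in GO and 29.8 and 33.1 CPM in CK replicates 1 and 2 (-0.58 ± 0.11). None of these genes overlapped between replicate 3 and the others.

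All 4 genes of paralog number 10, which in mice shape the lumbar region, were called lower. Of these, hoxb10a kept the call in 6 of 15 other fits, and was at -0.24 without GO replicate 3, and hoxd10a kept it in 13, and was at -0.36 without CK replicate 3. The highest, hoxa10b, had 11 and 10.4 CPM in GO and CK replicate 3, against 15.3 and 14.6 CPM in GO and 13.8 and 14.1 CPM in CK replicates 1 and 2 (-0.44 ± 0.11). hoxc11a had 4.58 and 5.96 CPM in GO and CK replicate 3, against 9.05 and 9.63 CPM in GO and 11.1 and 8.49 CPM in CK replicates 1 and 2 (-0.86 ± 0.18). hoxd11a had 4.77 and 7.15 CPM in GO and CK replicate 3, against 9.33 and 7.18 CPM in GO and 9.65 and 10 CPM in CK replicates 1 and 2 (-0.61 ± 0.18). The replicate 3 values of these 3 genes lay below all others, for hoxd11a by a small margin, and without GO replicate 3 its call was lost (-0.46). hoxc12a, with 9.99 and 9.02 CPM in GO and CK replicate 3 against 11.4 and 13.9 CPM in GO and 10.8 and 14.8 CPM in CK replicates 1 and 2, did not pass the test (-0.43 ± 0.17, adjusted p = 0.0607, edgeR).

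For paralog number 13 the summed log2 difference was smaller in size than for numbers 9 to 12 (-0.68 to -0.52). Paralog number 13 genes, several of which are needed for the outer fin skeleton in zebrafish, had 0 of 6 members called. Of these, hoxa13a, hoxc13b and hoxd13a were under 3 FPKM, a class in which 0 of 7 tested genes were called. The value of hoxc13b was -0.50 ± 0.31. Paralog number 13 genes summed to 23.1 and 21.3 CPM in GO and CK replicate 3. In replicates 1 and 2 the sums were 25.8 and 24.3 CPM in GO and 23.2 and 24.5 CPM in CK. The log2 difference of the TMM-scaled sums was -0.18. hoxc13a had 6.51 and 5.36 CPM in GO and CK replicate 3, against 5.82 and 6.23 CPM in GO and 5.83 and 5.87 CPM in CK replicates 1 and 2, and its log2 fold change was -0.01 ± 0.17. The log2 differences of the summed paralog numbers were smallest in size for 1 (-0.12), 13 (-0.18), 5 (-0.20) and 6 (-0.22), and largest for 9 (-0.68), 4 (-0.64), 3 (-0.59) and 11 (-0.59). No test of a difference between paralog numbers was made.

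By cluster, the 4 genes of hoxbb were all called lower. These are the 4 members on 2 rows, and the fits used their summed counts, which were whole. In the reference gene table the span of hoxb1b overlaps those of hoxb5b and hoxb6b. Of the 4 hoxbb genes, hoxb1b kept the call in 9 and hoxb6b in 11 of 15 other fits. Also called lower were 4 of 6 in hoxaa, 3 of 5 in hoxab, 4 of 7 in hoxda, 5 of 11 in hoxba and 5 of 11 in hoxca. In hoxcb 0 of 4 were called, although all 4 had negative values, from -0.89 to -0.28. The summed level of hoxda fell furthest, to 54.4 and 56.4 CPM in GO and CK replicate 3. In replicates 1 and 2 it was 89.0 and 86.1 CPM in GO and 91.5 and 92.0 CPM in CK. The log2 difference of the TMM-scaled sums was -0.73. For hoxcb the summed level was 17.1 and 20.7 CPM in GO and CK replicate 3. In replicates 1 and 2 it was 25.7 and 24.2 CPM in GO and 22.2 and 23.6 CPM in CK. The log2 difference of the TMM-scaled sums was -0.38. Calls went with level: 12 of the 16 genes at 10 FPKM or more were called lower, 13 of the 25 between 3 and 10, and 0 of the 7 tested genes under 3. The median log2 fold change was -0.46 in the highest class, -0.48 in the middle and -0.14 in the lowest, and the median SE was 0.11, 0.18 and 0.30.

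**Figure D4:**
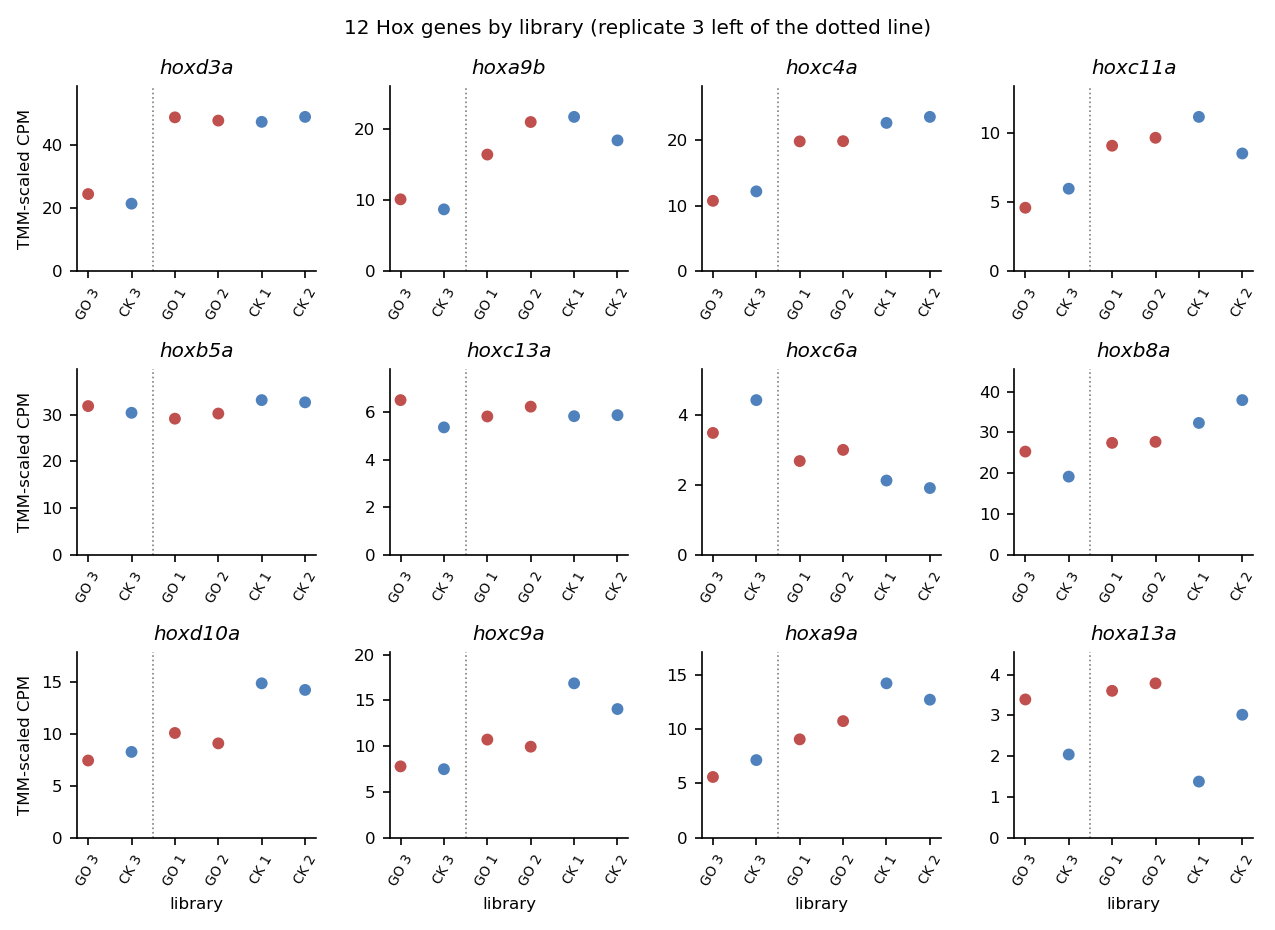
TMM-scaled CPM of 12 Hox genes in each library, with GO in red, CK in blue and the replicate 3 libraries left of the dotted line; every vertical axis starts at 0. hoxd3a, hoxa9b, hoxc4a and hoxc11a are lower in both replicate 3 libraries, hoxb5a and hoxc13a are at like levels in all 6, and hoxb8a is at 25.3 CPM in GO and 19.1 CPM in CK replicate 3.

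Other genes that work with or upstream of Hox genes moved in both directions in replicate 3. Among all tested genes, 28.8% were called higher and 27% lower in that comparison. Of 14 Hox cofactors, the Pbx, Meis and Pknox proteins that bind DNA together with Hox proteins, 10 were called lower and 2 higher. Their median log2 fold change was -0.44, and they summed to 911 and 937 CPM in GO and CK replicate 3, against 1366 and 1352 CPM in GO and 1171 and 1189 CPM in CK replicates 1 and 2. meis2a (-0.96) and meis2b (-0.94) fell furthest, and meis1a (0.78) and pbx2 (0.35) were higher. The even-skipped genes, which lie at the posterior end of Hox clusters, were lower: both tested members, evx1 (-0.84) and evx2 (-1.16), were called, and eve1 was under the level required for testing.

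Among 24 tested upstream regulators, 11 were called higher and 7 lower, with a median of 0.22. Of all tested genes 28.8% were called higher and 27% lower, so the share called lower was near that of all genes. The Cdx genes cdx1a (3.17) and cdx1b (3.49), which in vertebrate embryos activate trunk Hox genes and in adults are expressed in the intestine, were higher. aldh1a2, which makes retinoic acid, an inducer of anterior Hox genes, was also higher (0.93), and so were the retinoic acid-degrading genes cyp26a1 (0.80), cyp26b1 (0.55) and cyp26c1 (0.53). gdf11, a signal that in mouse embryos sets the start of posterior Hox expression, was lower (-1.12). Polycomb genes, whose proteins keep Hox genes silent, had 11 of 24 lower and 1 higher, cbx7a (1.05). Trithorax genes, whose proteins keep Hox genes active, had 10 of 16 lower and 1 higher, kmt2ca (0.26). The medians were -0.21 and -0.35.

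Markers of several cell types also moved with replicate 3, where 28.8% of all tested genes were called higher. The gene cdx1b, given above, is counted again in the intestine list. Hepatocyte, intestine and exocrine pancreas lists had 18 of 18, 11 of 11 and 16 of 16 tested members higher. Their summed levels in GO and CK replicate 3 were 14689 and 13047, 2240 and 2080, and 3438 and 3305 CPM. In replicates 1 and 2 they were 559 to 1241, 67.2 to 183 and 10.1 to 14.3 CPM. Cartilage and notochord genes (8 of 12 higher, 1 lower) and blood vessel genes (9 of 11 higher) had medians of 0.79 and 0.83.

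Neural and muscle markers were lower, in a comparison where 27% of all tested genes were called lower. Of 14 neuron genes 13 were called lower, with a median of -0.74, and they summed to 2226 and 2374 CPM in GO and CK replicate 3, against 3822 to 4115 CPM in the 4 others. Genes of spinal cord and motor neurons, a tissue with strong Hox expression in embryos, had 12 of 15 lower, with a median of -0.84. They summed to 219 and 215 CPM against 386 to 394 CPM. This list holds evx1 and evx2 too, so their calls are counted in both places. Homeobox genes listed for the anterior brain had 22 of 28 lower and a median of -0.85. They summed to 304 and 317 CPM in GO and CK replicate 3 against 571 to 612 CPM. The listed genes otx1, otx2a and otx2b were not found, and the list was not limited to genes confined to the brain. Muscle genes had 13 of 14 lower, with a median of -0.53, and summed to 62319 and 60542 CPM against 81325 to 90752 CPM. Fin and limb bud genes had 2 higher and 2 lower of 12, and epidermis genes 3 and 3 of 11. The fin shares were below those of all tested genes (28.8% higher and 27% lower), and the epidermis shares were near them.

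Per 1000 CPM of the muscle list, the Hox sum was 8.31 CPM in GO replicate 3 and 8.38 CPM in CK replicate 3, inside the range of 7.64 to 8.40 CPM of the 4 other libraries. Per 1000 CPM of the neuron list it was 233 CPM in GO replicate 3 and 214 CPM in CK replicate 3, above the range of 170 to 178 CPM of the others. Per 1000 CPM of the Hox cofactors it was 569 CPM in GO replicate 3 and 541 CPM in CK replicate 3, again inside the range of the others, 499 to 609 CPM. For the Trithorax list the same ratio was 316 CPM in GO replicate 3 and 313 CPM in CK replicate 3. Both lay below the range of the others, 340 to 366 CPM. For the epidermis list it was 35.7 CPM in GO replicate 3 and 22.5 CPM in CK replicate 3, on either side of the others' 28.85 to 31.09 CPM. Over both groups together, the Hox sum therefore moved by about as much as the muscle and cofactor lists. Within the groups it did not. Per 1000 CPM of cofactors it rose in GO from 499 and 505 to 569 CPM, and fell in CK from 609 and 583 to 541 CPM. Per 1000 CPM of muscle it was 8.37 and 8.40 CPM in GO replicates 1 and 2, and in CK it rose from 7.90 and 7.64 to 8.38 CPM. In both groups the Hox sum moved by less than the neuron list and by more than the Trithorax list. The part of these cell types in the Hox difference was not tested.

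Over all 6 libraries, graphene oxide was not accompanied by a called change in any Hox gene. The sums were 681, 683 and 518 CPM in GO replicates 1 to 3, against 714, 693 and 507 CPM in CK replicates 1 to 3, or 627 ± 94.8 CPM in GO and 638 ± 114 CPM in CK (SD, n = 3 each). The mean log2 difference was -0.02, and an exact two-sided permutation test over libraries gave p = 0.8, where 3 against 3 cannot go below 0.1. After Benjamini-Hochberg adjustment over 11 sums of tiers, clusters and all members it was 0.88, and no other sum was lower. edgeR called 0 of 48 members in either direction, where it called 0% of all tested genes. At an unadjusted p under 0.05 it was 0 of 48, beside 2.27% of all tested genes, and DESeq2 also called 0 members. The standard error (SE) of the log2 fold changes ran from 0.11 to 0.44 with a median of 0.27. With the replicate number as a block the median SE was 0.16, and again 0 members were called. At an unadjusted p under 0.05 there were then 3 of 48 members and 2793 of 19313 genes. The 3 were hoxd10a (-0.47 ± 0.15), hoxa9a (-0.41 ± 0.15) and hoxa13a (0.75 ± 0.29), with adjusted p = 0.288, 0.307 and 0.325 in edgeR.

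Of the 11 sums, 4 went the same way in all 3 same-numbered pairs in CPM: the anterior tier with GO above, and hoxaa, hoxbb and hoxda with GO below. For hoxda the log2 differences of GO minus CK were -0.04, -0.10 and -0.05 in replicates 1 to 3. In TPM 7 of 11 did so, all with GO above, the sum of all members among them (0.07, 0.15 and 0.07). None of the 11 kept 1 direction in all pairs in each of CPM, TMM-scaled CPM, FPKM and TPM, and 3 pairs cannot give a two-sided p below 0.25 in an exact sign-flip test.

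The median log2 fold change of the members was -0.07, beside 0.00 for all tested genes, and 30 of 48 (62.5%) were negative, beside 50.2%. GO and CK values did not overlap in 3 members. In hoxa13a, with hoxa13b needed for fin rays in zebrafish, GO libraries had 3.60, 3.79 and 3.39 CPM in replicates 1 to 3, against 1.38, 3.02 and 2.04 CPM in CK (log2 fold change 0.74 ± 0.34, unadjusted p = 0.0708, edgeR). In hoxd13a they had 1.85, 2.21 and 1.93 CPM, against 1.70, 1.83 and 1.45 CPM in CK (0.27 ± 0.27). In hoxc1a they had 1.39, 1.18 and 1.47 CPM, against 1.59, 1.83 and 2.64 CPM in CK (-0.59 ± 0.32). All 3 were low genes under 3 FPKM. The shares without overlap were 2 of 48 with GO above, beside 3.66% of all tested genes, and 1 of 48 with GO below, beside 4.09%. The direction was the same in all 3 same-numbered pairs for 20 of 48 members (41.7%), 8 of them with GO above and 12 with GO below, beside 37.8% of all tested genes.

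With replicates 1 and 2 of both groups alone, where the libraries of a group were much closer to each other, edgeR called 6 of 48 members lower in GO than in CK, or 12.5%, where 12% of all tested genes were called lower. It called 0 members higher, where 12.9% of all tested genes were called higher. The share called lower was near that of all genes, and the median was -0.11, beside 0.00. At an unadjusted p under 0.05 there were 9 of 48 members, beside 34.7% of all tested genes. The 6 genes came from the middle and posterior tiers, 3 from each, and the anterior tier had 0 of 10. With so few calls, at a share near that of all genes, this split cannot show a difference between tiers.

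hoxd10a, whose mouse counterpart acts in lumbar motor neurons, had 10.1 and 9.07 CPM in GO replicates 1 and 2, against 14.8 and 14.2 CPM in CK (log2 fold change -0.60 ± 0.15, adjusted p = 0.000797, edgeR). hoxc9a, whose mouse counterpart acts in thoracic motor neurons, had 10.7 and 9.94 CPM in GO, against 16.9 and 14.1 CPM in CK (-0.57 ± 0.15, adjusted p = 0.00111, edgeR). hoxb8a, a gene of the trunk, had 27.4 and 27.7 CPM in GO, against 32.3 and 37.9 CPM in CK (-0.36 ± 0.10, adjusted p = 0.00148, edgeR). In each of these genes both GO libraries lay below both CK libraries. hoxa9a had 9.05 and 10.7 CPM in GO, against 14.2 and 12.7 CPM in CK (-0.43 ± 0.15). hoxb6b had 7.02 and 6.39 CPM in GO, against 10.7 and 8.18 CPM in CK (-0.48 ± 0.19). hoxa4a had 20.5 and 18.1 CPM in GO, against 20.9 and 26.0 CPM in CK (-0.30 ± 0.12), and its libraries were the closest to overlapping. The count depended on the libraries and the tool: it was 3 without GO replicate 1 and 3 without CK replicate 1, 1 in limma on log2(FPKM + 1) and 0 in DESeq2. hoxd10a kept its call with any 1 library left out. hoxc9a lost it without CK replicate 1 (-0.45) and hoxb8a without CK replicate 2 (-0.23). hoxa9a lost it without GO replicate 1 or CK replicate 1 (-0.35 to -0.32), hoxb6b without any library but CK replicate 2 (-0.55 to -0.29), and hoxa4a without any but CK replicate 1 (-0.39 to -0.12).

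Cofactors and tissue markers also differed between GO and CK in replicates 1 and 2. Among all tested genes, 12.9% were called higher and 12% lower there. Of the 14 Hox cofactors 4 were called higher and 0 lower, meis1b (0.27), meis2a (0.13), meis2b (0.15) and pbx4 (0.24). Muscle genes had 13 of 14 lower, neuron genes 8 lower and 1 higher of 14, hepatocyte genes 16 of 18 lower, and cartilage and notochord genes 10 higher and 1 lower of 12. Muscle genes summed to 81356 and 81325 CPM in GO, against 90301 and 90752 CPM in CK, and neuron genes to 3822 and 3874 CPM in GO, against 4115 and 4075 CPM in CK. Spinal cord and motor neuron genes had 2 of 15 lower, a share near that of all tested genes. They summed to 387 and 386 CPM in GO against 391 and 394 CPM in CK. The part of these tissues in the Hox values was not tested.

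In the replicate 3 pair, with 1 library a group and so no replicate check, no member differed by 2-fold or more, where 0.689% of all tested genes were higher and 0.953% lower by that much. Past 1.5-fold there were 3 of 48 members higher, where 3.42% of all tested genes were, and 3 lower, where 4.49% were. The log2 differences of GO minus CK ran from -0.78 (hoxc1a) to 0.88 (hoxb6a), with a median of 0.02. Of the 6 genes called in replicates 1 and 2, hoxd10a was at -0.15 in this pair, hoxc9a at 0.06, hoxb6b at 0.01, hoxa9a at -0.34, hoxa4a at -0.26 and hoxb8a at 0.40. hoxd10a had 7.43 CPM in GO and 8.25 CPM in CK replicate 3, hoxc9a 7.79 and 7.49 CPM, and hoxa9a 5.59 and 7.15 CPM.

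**Figure D5:**
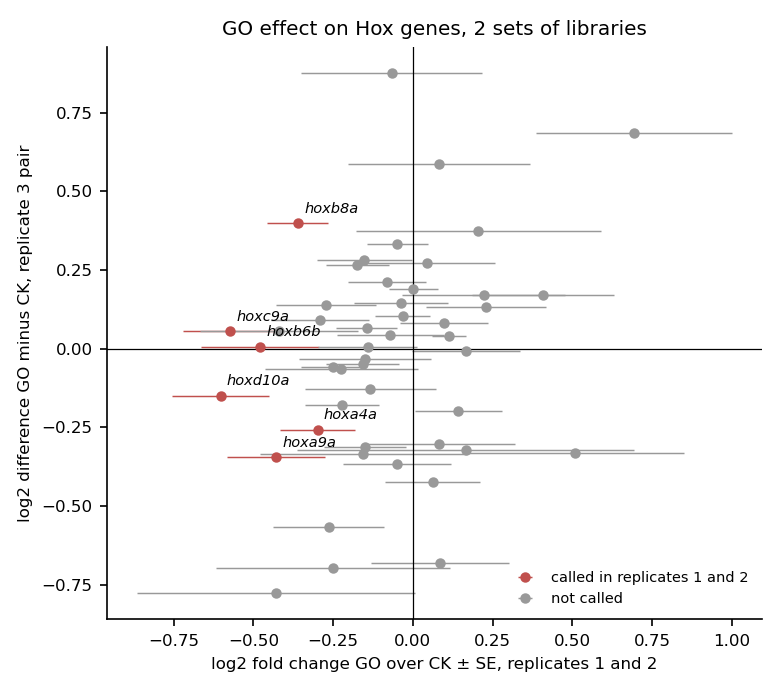
Log2 difference of GO minus CK in the replicate 3 pair (vertical) against the log2 fold change of GO over CK in replicates 1 and 2 (horizontal, ± SE, edgeR) for 48 Hox genes; the axes share no library. Red points are the 6 genes called lower in replicates 1 and 2, of which hoxb8a lies furthest above 0 in the replicate 3 pair, at 0.40.

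The difference between the effect in the replicate 3 pair and that in replicates 1 and 2 was fitted as an interaction. The pair has 1 library a group, so the spread in this fit is that between replicates 1 and 2 alone (common dispersion 0.000716, against 0.00965 in the fit of replicate 3 over the others), and its calls are no test of a difference between GO effects. edgeR called 1 of 48 members as higher in the pair, hoxb8a, where 6.63% of all tested genes were called higher, and 0 as lower, where 7.59% were. The share of members was below that of all genes in both directions, and DESeq2 and both limma fits called 0 members. hoxb8a had 27.4, 27.7 and 25.3 CPM in GO replicates 1 to 3, against 32.3, 37.9 and 19.1 CPM in CK. GO lay below CK in replicates 1 and 2 and above it in replicate 3, a fitted difference of 0.76 on the log2 scale. The 3 GO values lay close together and the CK values far apart, with CK replicate 3 the lowest. The fall of hoxb8a in replicate 3 (-0.49 ± 0.16) rested on that library: without it the value was -0.12 and the call was lost, as it was without CK replicate 1 (-0.49) or CK replicate 2 (-0.39). For the other 5 genes called in replicates 1 and 2 the fitted difference ran from 0.04 (hoxa4a) to 0.63 (hoxc9a).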

How the data were processed

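RNA from 6 libraries was analysed, 3 of the GO and 3 of the CK group, grouped and numbered by the labels. The authors deposited an estimated count for each row, which need not be whole, as the values showed; the method behind these expected counts is not stated per the file headers. TPM and FPKM columns, as deposited and named per the file headers, are scaled for transcript length and depth. The aligner Bowtie2 2.3.2 and the build GRCz11 are named in the submitters' processing notes. Whether reads were counted by strand is not given in the sources used here, and the split of reads between overlapping genes is uncertain.

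Rows of a gene ID were summed (5932 of 36191 IDs) and counts rounded. Names were matched to RefSeq's GRCz12tu gene table, a different build, so no coordinates are given, and sequences were not used here. All 49 members matched by symbol.

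Genes with a mean FPKM of at least 1 were tested with edgeR 4.0.16 (quasi-likelihood, TMM scaling) and adjusted by Benjamini-Hochberg over 19313 genes, with a two-sided threshold of 0.05. Gene levels between libraries are TMM-scaled CPM, sums are unscaled CPM. Log2 differences of sums between replicate 3 and replicates 1 and 2 were taken from TMM-scaled sums. Log2 differences of single genes in the replicate 3 pair used a prior count of 2. DESeq2 1.42.0 and limma 3.58.1 (pseudocounts 1 and 0.1) were alternatives. A count of 0 would allow 3 counts, or 0.231 to 0.308 CPM. Intervals cover counting error only.

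Values in every library were given for the member with the highest mean FPKM in each paralog number and, in each comparison, for up to 6 called members with the largest change in each direction. hoxa13a, hoxd13a, hoxc1a and other members were added after their values were seen. The members, the gene lists and replicate 3 were chosen with earlier results of these data known.

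Deviations from the group means correlated across genes at 0.73, 0.75 and 0.87 for same-numbered libraries, all over 0.1, so fits with the replicate number as a block are given as alternatives. The fits and the permutation test reported first have no such block. The pairing comes from the data, and replicate 1 of one group correlated as well with replicate 2 of the other (0.74 and 0.72). Passing the limit of 0.1 therefore does not show that replicates 1 and 2 are paired by number. Replicates 1 and 2 of a group differed by more than sampling noise over all genes (chi-square per degree of freedom 1.56 in GO and 1.62 in CK) and were kept separate. Over the 49 Hox genes alone it was 1.07 per gene in GO, about the sampling noise, and 1.93 in CK, which bears on the p-values from replicates 1 and 2.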

Additional observations from a re-analysis of the deposited data

Results flagged for a closer look

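For hoxb8a the fitted GO effect in the replicate 3 pair minus that in replicates 1 and 2 was 0.76 on the log2 scale, in an interaction term of edgeR. GO had 25.3 CPM and CK 19.1 CPM in replicate 3, against 27.4 and 27.7 CPM in GO and 32.3 and 37.9 CPM in CK replicates 1 and 2, so that CK replicate 3 stood furthest from its group. The pair has 1 library a group and the fit takes its spread from replicates 1 and 2, so whether the GO effect differed is not shown. The same term called 6.63% of all tested genes higher, against 1 of 48 members. DESeq2 and limma with either pseudocount did not call hoxb8a, and the term could not be fitted without either library of the pair.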

How the results depend on the processing

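The count of Hox genes lower in replicate 3 was 25, and it was 18 to 24 with 1 library left out, 19 in DESeq2 and 22 with the replicate number as a block. The single higher gene, hoxc6a, became 0 without the level filter, with a mean count of at least 10, in DESeq2, without a group term and with the replicate block, and 0 to 1 with 1 library left out. For GO against CK over all 6 libraries the count was 0 in every fit run, the replicate block included (smallest adjusted p 0.288), although DESeq2 called 3 genes higher and 7 lower of all tested. In replicates 1 and 2 the count lower was 6, also with the replicate block. It was 0 in DESeq2, 1 in limma with a pseudocount of 1 and 0 with 0.1, and 3 to 5 with 1 library left out. There the count higher was 0 to 1 with 1 library left out. Over all genes DESeq2 called 1114 higher and 933 lower there, against 2491 and 2319 in edgeR. The difference of the GO effect, 1 gene higher, became 0 in DESeq2 and in limma with either pseudocount. With a lone library in an arm, its spread is assumed to be that of the other libraries. At 1.5-fold, the replicate 3 pair had 3 members higher and 3 lower, against 0 and 0 at 2-fold (3.42% and 4.49% of all tested genes at 1.5-fold). The summed Hox level turned to 0.10 with summed TPM (exact permutation p = 0.5), against -0.02 in CPM, and ran from -0.18 to 0.11 with 1 library left out. None of the 26, 6 and 1 members called in these 3 comparisons changed direction in the 15, 12 and 11 other fits, but 13, 6 and 1 lost the call in at least 1. The cause of these changes was not tested.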
